A study of Mus musculus with 7 samples.

Results

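Smooth muscle cells and pericytes form the coat of the coronary vessels, and 10 genes commonly used to mark them were followed in hearts of mice lacking Krüppel-like factor 15 (KLF15), a zinc-finger transcription factor of cardiac and skeletal muscle and liver. The genes were Abcc9, Kcnj8, Myh11, Smtn, Acta2, Tagln, Cnn1, Rgs5, Cspg4 and Notch3, taken by name with earlier results of these data known. Every probe set that the platform annotation assigns to exactly 1 of these symbols was used, which gave 17 of the 22626 probe sets of the table and 10 of its 12393 genes. A probe set is a group of short array probes read as a single value, and several can stand for the same gene. Hearts came from 4 wild-type (WT) and 3 KLF15-null mice of the strain labelled C57/BL6, all labelled male, aged 3 to 4 months and fasted for 18 h. Neither how the null allele was made nor which part of Klf15 it removes is stated in the labels, and there was no fed group. Whole hearts were hybridised to Affymetrix 3' arrays, 1 array per mouse as titled.

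Smooth muscle cells contract vessels through smooth muscle myosin and α-actin, with calponin, transgelin and smoothelin attached to the actin filaments. Many of their contractile genes are switched on by serum response factor (SRF) with its cofactor myocardin. Pericytes sit on capillaries and lack most of that apparatus. In the heart they are recognised by the proteoglycan NG2 (Cspg4), the G-protein signalling regulator Rgs5 and the vascular ATP-sensitive potassium channel, which opens when ATP is low and relaxes the vessel. That channel is built from the pore Kir6.1 (Kcnj8) and the sulfonylurea receptor SUR2 (Abcc9). Notch3 is the Notch receptor of mural cells and keeps arterial smooth muscle differentiated.

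Abcc9 and Kcnj8 are immediate neighbours, with 0 protein-coding genes between them in the RefSeq annotation of GRCm38.p6, and their promoter windows are shown because these 2 partners of a single channel gave different results below. The Rgs5 window is shown because 1 Rgs5 probe set had the largest fall among the 10 genes. The brightest Rgs5 probe set did not fall, as described below. Capitals mark the letters CACCC, a core found in sites of Krüppel-like factors, on either strand (GGGTG is the same core read on the other strand). The Kcnj8 and Rgs5 runs are the 250 bases before the RefSeq start. For Abcc9 a stretch of 30 bases with 2 of its 5 matches is given.
Kcnj8, chr6:142571615-142571864, minus strand: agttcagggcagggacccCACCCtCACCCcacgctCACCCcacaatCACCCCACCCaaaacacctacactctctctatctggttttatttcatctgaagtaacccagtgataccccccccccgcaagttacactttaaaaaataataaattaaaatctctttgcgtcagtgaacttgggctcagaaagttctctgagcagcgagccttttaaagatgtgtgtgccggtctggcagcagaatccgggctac
Abcc9, chr6:142702423-142702452, minus strand: cgggcaaggaGGGTGgGGGTGaagagggtc
Rgs5, chr1:169655251-169655500, plus strand: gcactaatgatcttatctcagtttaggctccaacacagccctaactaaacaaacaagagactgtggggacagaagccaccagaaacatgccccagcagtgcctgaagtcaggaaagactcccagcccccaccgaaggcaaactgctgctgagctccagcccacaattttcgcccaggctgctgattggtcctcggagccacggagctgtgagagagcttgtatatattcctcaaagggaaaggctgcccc
The Kcnj8 and Abcc9 windows each held 5 CACCC matches, a number reached by 0.667% of all 32851 promoter windows of 250 bases. Both windows were singled out after the array results were seen, and the Abcc9 window overlaps the RefSeq span of Abcc9 itself. The Rgs5 window held 0. Windows were found for 8 of the 10 genes. Of these 8, 5 held CACCC (52% of all windows), 3 held TGGGAA, the core bound by the Notch effector RBPJ (21.6% of all windows), 4 held the E-box CANNTG (66.2%), and 0 held a strict CArG box, the site of SRF (1.47%). The strict box was CCWWWWWWGG, with W for A or T only. The Acta2 window holds ccctatatgg, which has a C among the W letters and was not counted. The 0 therefore depends on the pattern and does not mean that no looser form of the box is present. CANNTG reads the same on both strands, and all 4 motifs were searched on both strands with overlaps counted once per position. A match describes letters only, since no binding was measured.

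Array medians ran from 6.22 to 6.33 (log2). The top of the range was not level: the 98th percentile ran from 11.43 to 11.74 on WT arrays and from 11.86 to 12.02 on KLF15-null arrays. The brightest 10% of probe sets had a median KLF15-null minus WT difference of 0.30, and of -0.001 after quantile normalization. Calls of bright genes and the linear sums given below were taken on the deposited values, without correction for this shift. The Klf15 probe set averaged 8.87 ± 0.19 (SD, n = 4) on WT arrays and 6.33 ± 0.17 (SD, n = 3) on KLF15-null arrays. All 7 arrays went against the label male: the brightest probe set of Xist, the RNA that coats the silenced X in females, read between 8.57 and 9.94, and 9 probe sets of Y-linked genes had means at or below the 27.3rd percentile. These 9 leave out the _x_at probe set of Sry, whose probes may bind other transcripts and which lay at the 53.0th percentile, while the other Sry probe set is among the 9. This held in both groups, so no comparison could be repeated without such arrays. The brightest Xist probe set averaged 9.90 in WT and 9.06 in KLF15-null hearts, without overlap. Another bright Xist probe set averaged 8.93 and 8.92, with overlap. Heart muscle markers were at the top of the range, with Tnni3 at 13.6 in the WT and 13.8 in the KLF15-null group. In tissue RNA, fewer cells of a type and less RNA per cell cannot be told apart. Nothing beyond the titles states that the arrays are of separate animals, so p-values measure the spread between these 7 arrays only.

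Differences are given as KLF15-null minus WT on the log2 scale and were tested with limma over all 13576 probe sets whose mean reached the 40th percentile (log2 5.74), with Benjamini-Hochberg adjustment and a threshold of 0.05. Of the 17 probe sets 15 were tested, at least 1 for each of the 10 genes. Of these 15, 7 were called lower in KLF15-null hearts, 1 was called higher and 7 did not pass the threshold (no call). The 7 lower ones belonged to Abcc9, Myh11, Smtn, Rgs5 (3 probe sets) and Notch3, and the higher one to Cspg4. Over all probe sets tested 23.8% were lower and 26.8% higher. The median difference was -0.25 over the 15 and 0.00 over all tested. In 8 of the 15 all KLF15-null values lay below all WT values and in 2 above, against 25.4% and 27.6% of all probe sets tested. Probe sets of a gene share their target and are not independent. The 10 genes were also chosen with earlier results of these data known, so the shares beside these counts are descriptive only. Taken gene by gene on the brightest probe set, 3 of 10 were called lower, 0 were called higher and 7 had no call, against 19.6% lower and 27.4% higher of all 8404 genes. The choice of probe set therefore moved these counts, since Rgs5 and Notch3 were not past the threshold on their brightest probe set. When tested probe sets were averaged by gene, 5 of 10 were called lower and 1 was called higher, against 22.8% and 24.2% of all genes. By that mean Notch3 fell by 0.55 (limma adjusted p = 0.00403) and Cspg4 rose by 0.33 (limma adjusted p = 0.00937), means over probe sets that do not match each other.

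**Figure D1:**
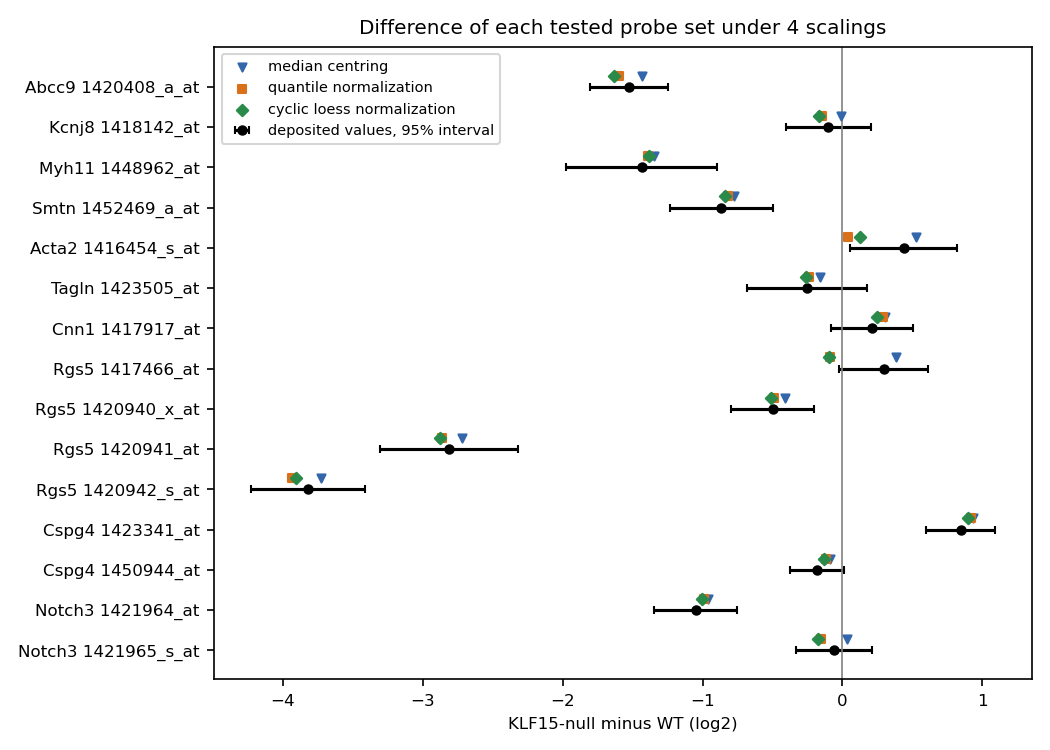
Difference between KLF15-null and WT hearts (log2, horizontal axis) for each of the 15 tested probe sets; black points with bars are the deposited values with limma's 95% interval, and coloured symbols are the same difference after 3 other scalings of the arrays. The 7 probe sets called lower stay left of 0 under each scaling, while the brightest Rgs5 probe set sits at 0.29 as deposited and at -0.086 after quantile normalization.

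The 2 subunits of the vascular potassium channel differed. Abcc9, the regulatory subunit, fell, and Kcnj8, the pore, did not pass the threshold. The probe set of Abcc9 read 9.35, 9.42, 9.75 and 9.58 in the WT hearts and 7.90, 8.11 and 7.98 in the KLF15-null hearts. The groups were far apart, with a gap wider than the spread inside either group. The difference was -1.53 (SE 0.12, limma adjusted p = 1.18e-05), a 2.88-fold lower signal. Kcnj8 read 8.35, 8.60, 8.85 and 8.71 in WT and 8.61, 8.37 and 8.61 in KLF15-null hearts, values that overlapped fully. Its difference was -0.10, with a 95% interval from -0.40 to 0.20 (limma adjusted p = 0.560). The change of Abcc9 differed from that of Kcnj8 by -1.43, with no overlap between genotypes in the per-array difference of the 2 probe sets (exact permutation p = 0.0286, two-sided, the smallest that 35 splits of 7 arrays allow). SUR2 also serves the ATP-sensitive channel of heart muscle cells, where it pairs with Kir6.2 (Kcnj11). Kcnj11 was not tested, since its mean over the 7 arrays (5.52) was below the 40th percentile. It averaged 5.96 ± 0.14 (SD, n = 4) in the WT group, above that level, and 4.93 ± 0.04 (SD, n = 3) in the KLF15-null group. All 3 KLF15-null values lay below all 4 WT values. With no filter on brightness Kcnj11 was tested and was called lower, with a difference of -1.03. Abcc8, the SUR1 gene, differed by 0.23 (limma adjusted p = 0.197).

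The contractile markers divided into those that fell and those that did not pass the threshold. Myh11, the smooth muscle myosin heavy chain and the marker most particular to the contractile cell, read 7.17, 7.06, 7.59 and 7.22 in WT and 6.46, 5.29 and 5.73 in KLF15-null hearts. All KLF15-null values were lower, with a wide spread among them. The difference was -1.44 (SE 0.24, limma adjusted p = 0.000838), 2.70-fold lower. Since 2 of the 3 KLF15-null arrays were below the filter level and the table holds no detection calls, background may limit the size of that fall. A second Myh11 probe set was dim in every heart, at 4.50 ± 0.05 (SD, n = 4) and 4.55 ± 0.08 (SD, n = 3), and was not tested.

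Smtn, which codes for the actin-bound protein smoothelin, read 7.89, 7.94, 8.23 and 7.80 in WT and 7.45, 6.77 and 7.08 in KLF15-null hearts. The groups did not overlap. The difference was -0.87 (SE 0.16, limma adjusted p = 0.00167), 1.82-fold lower, with KLF15-null array 2 the lowest for Smtn, as it was for Myh11 and Tagln.

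Acta2, vascular smooth muscle α-actin, read 10.69, 11.43, 11.28 and 11.01 in WT and 11.49, 11.66 and 11.46 in KLF15-null hearts. All KLF15-null values were above all WT values, but the difference of 0.44 (SE 0.17) did not pass the threshold (limma adjusted p = 0.0569). The probe set is among the brightest of the array, and the 423 tested probe sets within 0.5 of its mean had a median difference of 0.41. After cyclic loess normalization, which evens out such shifts with brightness, the Acta2 difference was 0.12, while after median centring it was 0.53 and passed (limma adjusted p = 0.0283). It also passed without WT array 2, at 0.55 (limma adjusted p = 0.0287). The second Acta2 probe set was dim at 4.91 in both groups and not tested.

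Tagln, which codes for transgelin, read 8.06, 8.09, 8.59 and 8.01 in WT and 8.22, 7.54 and 8.06 in KLF15-null hearts. The groups overlapped, with KLF15-null array 2 below all WT values. The Tagln difference was -0.25, with a 95% interval from -0.68 to 0.18 (limma adjusted p = 0.302). Cnn1, which codes for calponin 1, lay near the filter level, at 5.69, 5.77, 5.89 and 5.83 in WT and 5.82, 6.35 and 5.85 in KLF15-null hearts. A single KLF15-null heart, array 2, stood above the rest. Its difference was 0.21, with a 95% interval from -0.08 to 0.50 (limma adjusted p = 0.201), and 0.04 without that array. The contractile set therefore held falls of Myh11 and Smtn beside Acta2, Tagln and Cnn1 without a call.

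**Figure D2:**
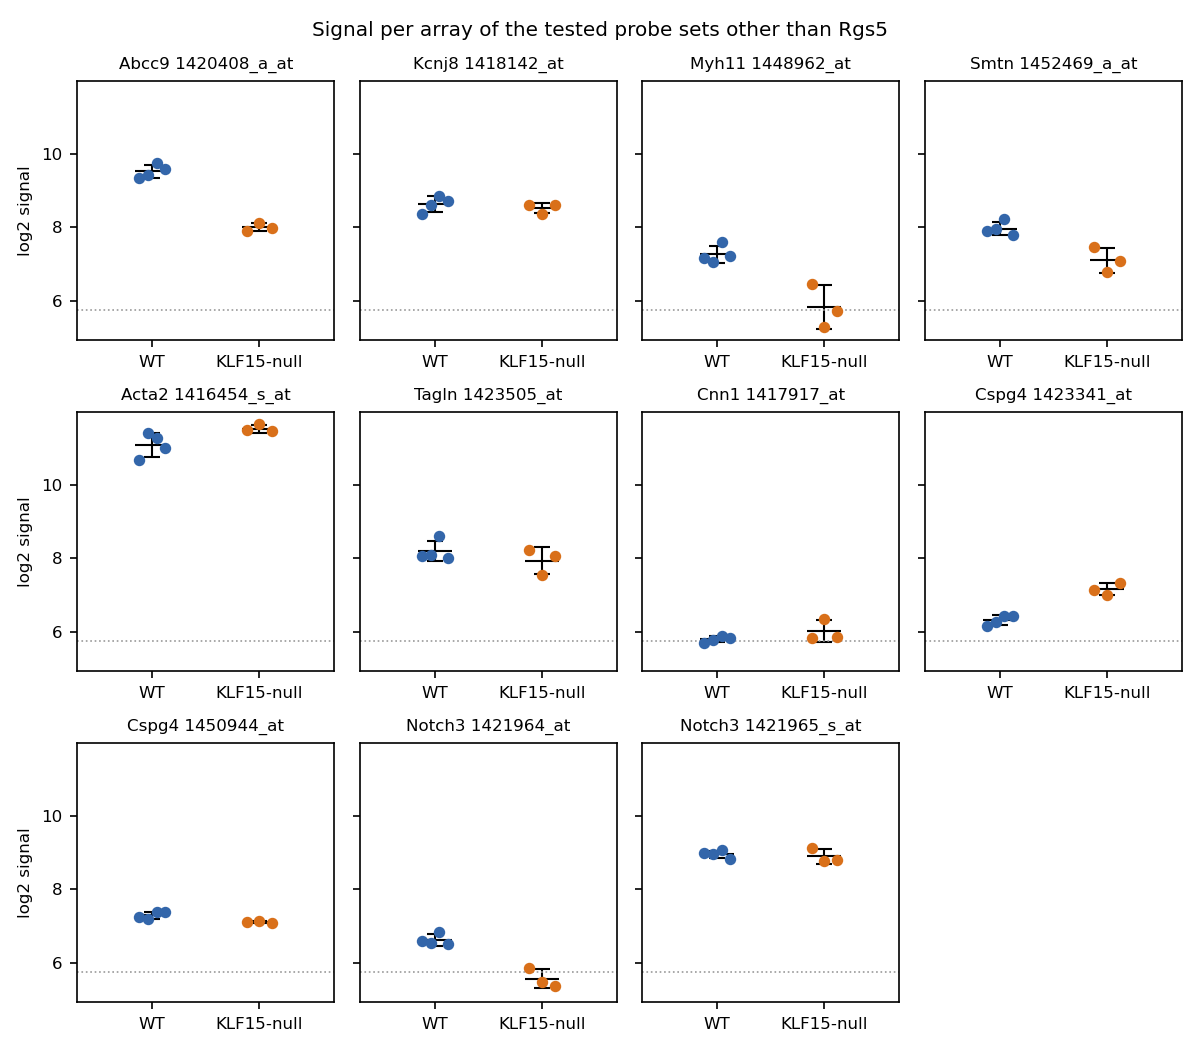
Log2 signal on each array for the 11 tested probe sets other than those of Rgs5; points are single hearts, black bars the group mean ± SD (WT, n = 4; KLF15-null, n = 3), and the dotted line the filter level of 5.74. Abcc9, Myh11, Smtn, 1 Notch3 and 1 Cspg4 probe set (1450944_at) have KLF15-null points below all WT points. Acta2 and the other Cspg4 probe set (1423341_at) have them above. Of these, Acta2 and Cspg4 1450944_at did not pass the threshold.

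Rgs5, a GTPase-activating regulator of G-protein signals and a common pericyte marker, had 4 tested probe sets that gave 4 different answers. On probe set 1420942_s_at the WT hearts read 10.05, 10.27, 10.67 and 10.50 and the KLF15-null hearts 6.73, 6.21 and 6.71. The fall was the largest among the 15 probe sets, at -3.82 (SE 0.18, limma adjusted p = 8.64e-07), 14.1-fold lower. On 1420941_at the values were 9.44, 9.83, 10.21 and 9.46 in WT and 6.59, 7.31 and 6.86 in KLF15-null hearts. This fall of -2.81 (SE 0.22, limma adjusted p = 9.98e-06) was again far outside the spread between hearts.

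The other 2 Rgs5 probe sets did not show a fall of that size. On 1420940_x_at, whose suffix marks probes that may also bind other transcripts, WT hearts read 8.11, 8.20, 8.65 and 8.37 and KLF15-null hearts 7.83, 7.85 and 7.82. The difference was -0.50 (SE 0.13, limma adjusted p = 0.0111). On 1417466_at, at the 98.9th percentile of all probe sets by mean and the brightest of the 4, WT hearts read 11.93, 12.04, 12.51 and 12.12 and KLF15-null hearts 12.43, 12.53 and 12.37. These values overlapped, because WT array 3 was as high as the KLF15-null arrays. The difference of 0.29 (SE 0.14) did not pass the threshold (limma adjusted p = 0.109), and the 283 tested probe sets of similar brightness had a median of 0.41. It passed without WT array 3, at 0.41 (limma adjusted p = 0.00518).

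Each of the 6 pairs of Rgs5 probe sets differed in its change between genotypes, by 0.79 to 4.12 on the log2 scale, without overlap between the groups (exact permutation p = 0.0286 for each, the smallest possible, and 0.0286 after Benjamini-Hochberg adjustment over the 9 pairs compared here, chosen after the values were seen). Between 1417466_at and 1420942_s_at the signal gap was 1.78 ± 0.11 (SD, n = 4) for WT hearts and 5.90 ± 0.37 (SD, n = 3) for KLF15-null hearts. The mean of the 4 probe sets gave -1.71 (SE 0.14, limma adjusted p = 2.9e-05), an average of values that do not describe a common change. The positions of the probes in the Rgs5 transcripts were not used here, so which part of the mRNA each reads was not tested.

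**Figure D3:**
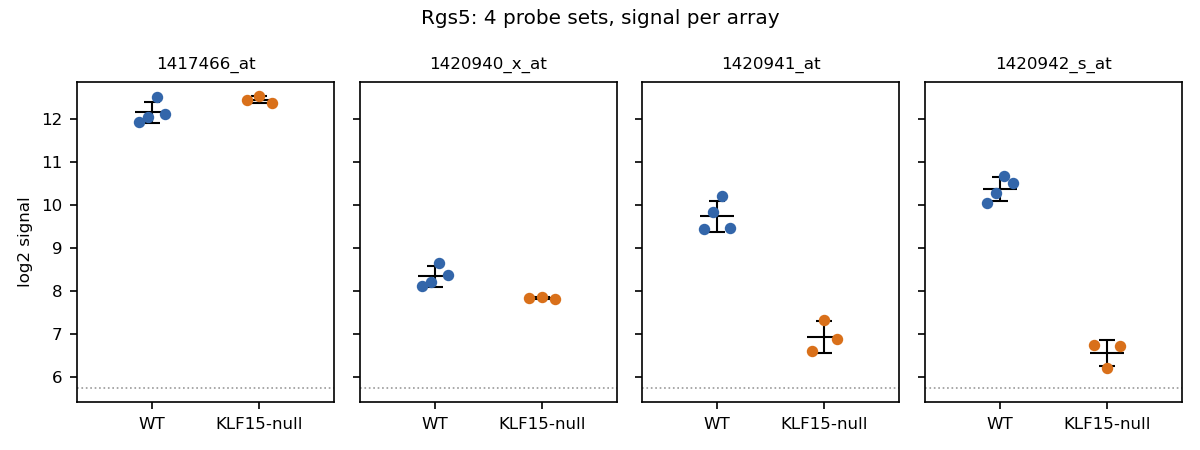
Log2 signal of the 4 Rgs5 probe sets on each array; points are single hearts, black bars the group mean ± SD (WT, n = 4; KLF15-null, n = 3), and the dotted line the filter level. From left to right the difference between KLF15-null and WT hearts is 0.29, -0.50, -2.81 and -3.82.

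Probe sets that disagree were common on this array set, and Rgs5 lay at the far end. Of 2748 genes with more than 1 tested probe set, 21.0% had calls in both directions and 56.4% had a call beside a probe set that was not called. The range between the highest and lowest difference of a gene had a median of 0.83 over these genes and of 1.50 over the 188 genes with 4 tested probe sets. The range of Rgs5 was 4.12, reached by 5 of those 188 genes, itself included. In 54.7% of the 2748 genes the probe set brightest in WT had a more positive difference than the dimmest.

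**Figure D4:**
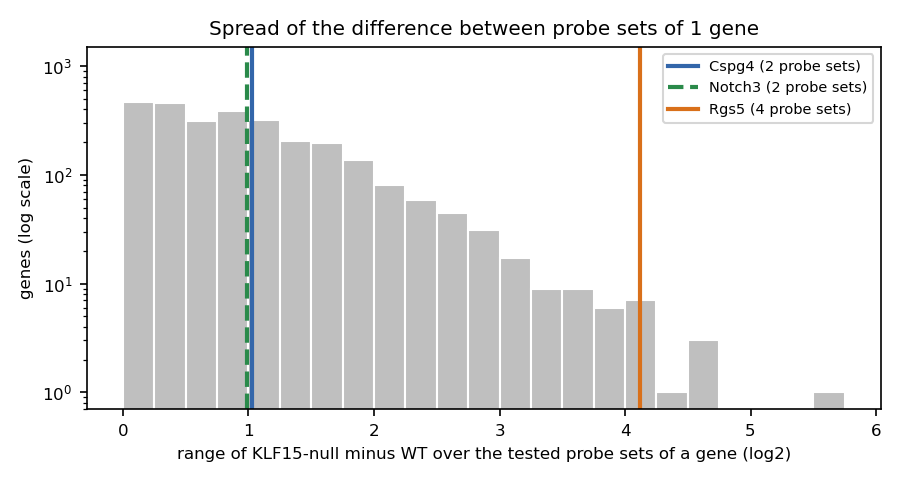
Number of genes (vertical axis, log scale) by the range of the KLF15-null minus WT difference over their tested probe sets (log2, horizontal axis), for the 2748 genes with more than 1 tested probe set. Cspg4 (1.03) and Notch3 (0.99) lie near the middle and Rgs5 (4.12) at the far right.

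Cspg4, which codes for the pericyte proteoglycan NG2, was the only marker with a call upward, and on 1 of its 2 probe sets. On 1423341_at WT hearts read 6.15, 6.25, 6.42 and 6.43 and KLF15-null hearts 7.14, 7.0 and 7.33. The groups were well separated, and the difference was 0.85 (SE 0.11, limma adjusted p = 0.00017), 1.80-fold higher. On 1450944_at WT hearts read 7.24, 7.18, 7.37 and 7.37 and KLF15-null hearts 7.10, 7.14 and 7.09. Here all KLF15-null values were slightly below all WT values, with a difference of -0.18 that did not pass the threshold (limma adjusted p = 0.106). The 2 changes differed by 1.03 (exact permutation p = 0.0286, the smallest possible).

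Notch3 also had 2 tested probe sets that did not match. On 1421964_at WT hearts read 6.58, 6.54, 6.84 and 6.50 and KLF15-null hearts 5.86, 5.48 and 5.35. All KLF15-null values were lower, and the difference was -1.05 (SE 0.13, limma adjusted p = 0.000153). The KLF15-null hearts averaged 5.56, under the filter level, so background may limit this fall too. On the brighter 1421965_s_at WT hearts read 8.99, 8.95, 9.06 and 8.82 and KLF15-null hearts 9.12, 8.76 and 8.81, with overlap. That difference was -0.06, with a 95% interval from -0.33 to 0.21 (limma adjusted p = 0.713). The 2 changes differed by -0.99 (exact permutation p = 0.0286, the smallest possible).

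The arrays also varied within a genotype. WT array 3 had the highest WT value in 12 of the 15 tested probe sets, while it was highest in 48.1% of all probe sets tested. KLF15-null array 2 was the lowest KLF15-null value in 7 of the 15, against 45.8% of all tested. Without any single array the count of lower probe sets stayed at 7. The count of higher ones became 2 without WT array 2, where Acta2 passed, and 2 without WT array 3, where the brightest Rgs5 probe set passed.

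Other genes of the vessel wall were read from lists, each gene by its brightest tested probe set, to be set against 27.4% higher and 19.6% lower of all genes and a median of 0.02. Of 21 further contractile genes 5 were called lower, 5 were called higher and 11 had no call, with a median of -0.08. Synpo2 (a Z-disc and actin-binding protein) fell by 2.82 on the log2 scale, Pcp4l1 fell by 2.29, and Tns1 (tensin 1, of focal adhesions) fell by 2.18 and, on a second probe set, fell by 1.02. In the KLF15-null group Synpo2 averaged 5.50, under the filter level. Myl9, the smooth muscle regulatory light chain, named after its value was seen, fell by 1.53. Cald1, the actin-binding caldesmon, rose by 1.49 on its brightest probe set and fell by 1.96 on another. Named after their values were seen, the other higher genes were Itga5 (1.09), Tpm2 (0.93), Vcl (0.54) and Cnn2 (0.50). Tpm2 rose by 0.96 on a second probe set and stood at -0.15 without a call on another. The other Itga5 probe set stood at -0.16 without a call. Vcl missed the threshold after quantile normalization, and its other probe set, not tested, averaged 5.53 in WT and 4.57 in KLF15-null hearts. Csrp1, the remaining lower gene, named likewise, stood at -0.98 and -0.65. Of the same list Mylk (myosin light chain kinase), Lmod1 and Actg2, also named after their values were seen, stood at -0.21, -0.02 and -0.16, not past the threshold. Synpo2, Tns1 and several others of this list are also made by heart muscle cells.

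Of 13 further pericyte and mural genes 3 were called higher, 3 were called lower and 7 had no call, with a median of -0.11. Pdgfrb, the receptor by which pericytes are recruited, rose by 1.71 (SE 0.15, limma adjusted p = 2.09e-05) on its brightest probe set and fell by 0.43 on its other (limma adjusted p = 0.0448), a fall that missed the threshold under each of the 3 other scalings. Steap4, a metalloreductase, rose by 0.93, while a second Steap4 probe set, too dim to be tested, averaged 5.83 in WT and 4.57 in KLF15-null hearts, without overlap. The third higher gene, Cd248, named after its value was seen, rose by 0.30, just past the threshold (limma adjusted p = 0.0496). The higher count was 2 without a filter, under a filter at the 60th percentile and with a replicate block. It was 4 after median centring and after quantile normalization. Vtn, which codes for vitronectin, fell by 0.93 and Angpt1, the ligand of the endothelial Tie2 receptor, by 0.37, which missed the threshold after median centring and after quantile normalization. The third lower gene, Gucy1a1 (a subunit of the nitric oxide receptor), named after its value was seen, stood at -0.37 and missed it under the same 2 scalings. The lower count was thus 1 under these scalings. It was also 1 under a filter at the 60th percentile, and 5 without a filter or when probe sets were averaged by gene. A second Gucy1a1 probe set, too dim to be tested, averaged 6.09 in WT and 5.24 in KLF15-null hearts, without overlap. Gucy1b1 of the same list, also named after its values were seen, stood at -0.51 without a call on its brightest probe set (limma adjusted p = 0.0852). On its other probe set Gucy1b1 stood at -1.55 (limma adjusted p = 4.72e-06). In the list of PDGF and vessel-coat signals 7 of 15 were called higher, 4 were called lower and 4 had no call (median 0.12); the lower count was 2 under the 60th percentile filter. The ligand gene Pdgfa rose by 2.05, and by 1.60 on a second probe set. Pdgfb, the endothelial ligand of Pdgfrb, stood at -0.04 (limma adjusted p = 0.778). The TGF-β receptor gene Tgfbr1 rose by 0.66, and S1pr1, the endothelial sphingosine-1-phosphate receptor, fell by 1.40.

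In the Notch pathway 7 of 18 were called higher, 3 were called lower and 8 had no call (median 0.03); the lower count was 0 under the 60th percentile filter and 1 with a replicate block. Heyl, a target gene of Notch3 in mural cells, fell by 0.75 (SE 0.15, limma adjusted p = 0.00269), and another of its probe sets stood at 0.03 (limma adjusted p = 0.816). Hey1 rose by 0.39. Among the ligands Dll4 fell by 0.90 on 1 probe set and by 0.29 on the other, which missed the threshold under the 3 other scalings. Jag2 fell by 0.36 on its brighter probe set, Dll1 stood at -0.05 without a call, and both Jag1 probe sets were too dim to be tested. Of the other receptors Notch4 rose by 0.35. Notch1 stood at 0.15 without a call on its brighter probe set and fell by 0.33 on the other, and Notch2 stood at -0.18 without a call and rose by 1.50 on the other. The protease genes Adam10 and Adam17, which cut Notch receptors, rose by 0.90 and 0.52 on their brightest probe sets and fell by 0.30 and 0.55 on another each. The smaller fall of Adam10 missed the threshold after median centring and after quantile normalization.

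Of 15 regulators around SRF and myocardin 8 were called higher, 4 were called lower and 3 had no call (median 0.33), but when probe sets were averaged by gene 4 were called higher and 5 were called lower. Myocd, which codes for myocardin, fell on both of its probe sets, by 0.86 (SE 0.17, limma adjusted p = 0.00259) and 0.61 (limma adjusted p = 0.000253). Srf rose by 1.26 on its brightest probe set, and its other stood at -0.30 without a call (limma adjusted p = 0.0807). The LIM-domain gene Fhl1 rose by 1.39. Actb, which codes for cytoplasmic β-actin, fell by 1.33 where it is brightest and rose by 1.02 on another probe set. Of 7 other regulators of G-protein signalling 1 was higher, Rgs19 by 0.61, 1 lower and 5 not past the threshold. The lower one was Rgs2, a brake on vasoconstrictor receptors, which fell by 0.94 on 1 probe set and fell by 2.34 on the other.

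**Figure D5:**
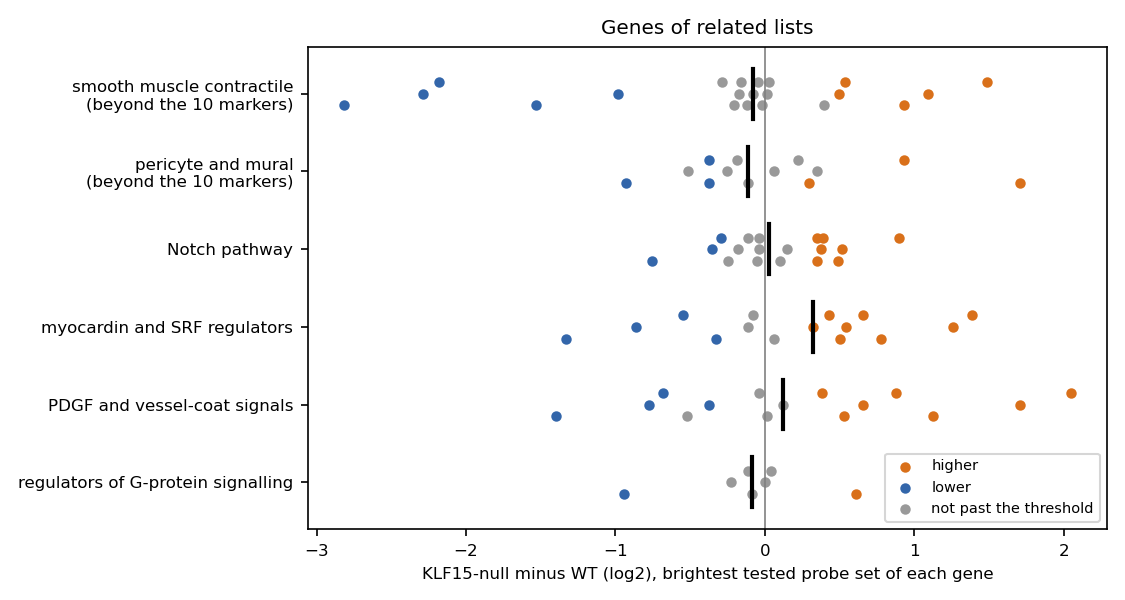
KLF15-null minus WT difference (log2, horizontal axis) of each gene of 6 lists, by its brightest tested probe set; orange genes were called higher, blue lower and grey neither, and black ticks are list medians. Each list holds genes on both sides of 0, with medians from -0.11 to 0.33.

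Markers of other cardiac cell types are given beside these results, and their part in them was not tested. Their counts are likewise to be set against 27.4% higher and 19.6% lower of all genes. Of 12 heart muscle markers 1 was called higher, 1 was called lower and 10 had no call, and their summed linear signal ran from 129467 to 147846 in WT and from 141621 to 152734 in KLF15-null hearts. Of 12 endothelial markers 1 was called higher, 4 were called lower and 7 had no call, with a median of -0.013 and sums of 4191 to 4839 and 3422 to 4665. Pecam1 fell by 2.24 and Emcn fell by 1.44, while Flt1, a VEGF receptor gene, rose by 0.85 on its brightest probe set and fell by 0.63 on another. Of 12 fibroblast markers 2 were called higher, 3 were called lower and 7 had no call, with sums of 10426 to 18987 and 13381 to 14632. Of 6 markers of activated fibroblasts, cells that can make α-actin, 3 were higher (Timp1, Ckap4 and Fn1) and 3 not past the threshold, with sums of 940 to 1389 and 3001 to 3751.

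Of 4 markers of the great vessel wall (Eln, Fbln5, Mfap4 and Loxl1) 0 passed limma's threshold, and 0 had an unadjusted p under 0.05. Their sums were 784 to 1090 in WT and 721 to 970 in KLF15-null hearts. Of 5 atrial markers 1 was called higher, Nppa (atrial natriuretic peptide) by 1.71, and 4 had no call. Their sums did not overlap, at 2146 to 3232 in WT and 4619 to 17092 in KLF15-null hearts, and the median difference was 1.56. Myl7, the atrial light chain, ran from 5.14 to 8.15 in WT and from 6.53 to 11.12 in KLF15-null hearts, highest on array 3. The summed marker of mesothelium and epicardium did not overlap either: Aldh1a2, the only tested gene of that list, rose by 1.92 and its linear signal was 60.4 to 82.3 in WT and 167 to 368 in KLF15-null hearts, while Msln, Upk3b and Wt1 were too dim to be tested. Of 9 macrophage markers 2 were called higher, 2 were called lower and 5 had no call, with sums of 2827 to 4802 and 4413 to 6190. Among 3 Schwann cell, 2 adipocyte and 3 skeletal muscle markers 1 was called lower in the second list and 1 was called higher in the third.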

How the data were processed

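Per the labels' protocols, RNA was Trizol-extracted from frozen hearts, amplified from the 3' end, labelled with biotin and hybridised. The authors deposited 1 log2 value per probe set and array; that unit was read from the values (3.20 to 14.28). Per the submitters' processing notes GCOS was used. The sources used here do not give how signals were summarised and scaled. Probe sets were named through the platform annotation (20380 with 1 symbol), and the symbols of all 17 probe sets matched RefSeq by Entrez number. The 3 KLF15-null arrays were set against the 4 WT arrays in limma 3.58.1 under R 4.3.3 (empirical Bayes with intensity trend, two-sided, Benjamini-Hochberg over the 13576 probe sets kept, no covariate). A gene of a list was represented by its brightest tested probe set. From each list up to 4 genes past the threshold were named by smallest p, with the Notch receptors and ligands, Kcnj11, Abcc8, Pdgfrb, Srf and Myocd whatever their result, and others as stated. A gene that this rule names is not reported here. Contrasts between probe sets used exact permutation of the 7 arrays. Promoter letters are RefSeq's (GRCm38.p6), read by symbol. The fit was tested on simulated data. The members and lists were chosen with earlier results of these data known. Alternatives were 2 other filters, 3 scalings, no trend, array weights, no _x_at probe sets, a replicate block, each array left out, and 2 other ways to represent a gene.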

Additional observations from a re-analysis of the deposited data

Results flagged for a closer look

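Tagln on WT array 3 read 8.59, above the next WT value of 8.09 by a gap that took 86.7% of the range of the 4 WT hearts, past the 95% critical value of Dixon's ratio. It was the only such value among the WT groups of the 17 probe sets, where chance gives about 1 in 20; the 3 KLF15-null arrays are too few for this test and were not examined. Without WT array 3 the Tagln difference was -0.11 (limma adjusted p = 0.618), also without a call.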

How the results depend on the processing

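The 7 probe sets called lower gave counts of 5 to 7 under every alternative run, the 5 under a filter at the 60th percentile, where fewer probe sets were tested. The count called higher, 1 as deposited, was 0 under that filter, 3 after median centring (Acta2 and Rgs5 1417466_at added) and 2 with array weights, and ran from 1 to 2 when single arrays were left out. Rgs5 1417466_at turned from 0.29 to -0.086 after quantile and -0.096 after cyclic loess normalization, Kcnj8 to 0.011 with array weights, and Notch3 1421965_s_at to 0.033 after median centring and, with single arrays left out, to between -0.17 and 0.011 (the latter without KLF15-null array 2), all without a call; the cause was not tested. Of genes in the related lists 30 were higher and 19 lower, the latter 12 under the 60th percentile filter, and 24 to 31 and 16 to 19 with single arrays left out. Of 74 called probe sets of these lists 11 missed the threshold under at least 1 of the 3 scalings and 0 changed direction. All tested probe sets called higher ran from 3105 to 3936 and lower from 2750 to 3433 with single arrays left out. Higher calls were 52.9% of all calls, and 63.3% after median centring, which moved the median of all tested probe sets to 0.09. The replicate numbers gave no clear pairing of the samples, with correlations of deviations of -0.11, 0.00 and 0.19. KLF15-null arrays 1 and 2 correlated best with another number, and array 3 with its own. So few arrays cannot exclude a pairing. With the replicate block the counts were 7 lower and 1 higher, against 3042 higher and 2726 lower of all tested. The number of arrays limits the precision, and signals near the filter level may limit the falls of Myh11 and Notch3 1421964_at.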
